A study of Mus musculus with 12 samples.

Results

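Cytosolic ribosomal protein genes encode the proteins of the ribosome's small (Rps) and large (Rpl) subunits. They were chosen by gene symbol, as Rps or Rpl with a number and then, each optional, a letter, a digit and an l (such as Rps3a1 or Rpl36al). Rplp0, Rplp1, Rplp2 and Rpsa were added, and symbols marked as pseudogenes were left out. The rule found 86 of the 35976 genes in the count table. Of these, 77 were core genes, with 31 in the small subunit and 46 in the large subunit, and the remaining 9 were paralogs or copies of a core gene (Rpl3l, Rpl7l1, Rpl10l, Rpl22l1, Rpl32l, Rpl36al, Rpl39l, Rps4l and Rps27l). All 77 core genes and 7 of the 9 paralogs had enough counts to be tested.

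The libraries held poly(A) RNA from CD45.2+ bone marrow cells of C57BL/6 mice, sorted by flow cytometry, with 3 libraries in each of 4 groups. BN1 cells carried BRD9-NUTM1, a fusion of a bromodomain subunit of the BAF chromatin remodeler with the testis protein NUTM1. MA9 cells carried MLL-AF9 and ME cells carried MLL-ENL, fusions that drive acute leukemia, and WT was normal marrow with no fusion. Whether the 3 libraries of each group stem from 3 mice is not stated in the labels, and the p-values then measure only the spread between these libraries, which may be technical.

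Ribosomal proteins fold around ribosomal RNA and are needed in matched amounts, since lack of 1 protein can stop the assembly of its subunit. Their mRNAs are among the most abundant in growing cells, and most begin with a pyrimidine-rich stretch through which the kinase mTOR and the RNA-binding protein Larp1 control translation. In bone marrow, loss of 1 copy of several of these genes causes Diamond-Blackfan anemia in humans.

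Library totals ran between 18292636 and 25732049 counts. The summed levels of red cell, neutrophil and B cell markers were far lower in the leukemias than in WT. The summed level of 10 red cell markers was 20.4 to 22.2 CPM (counts scaled to a common library total) in BN1, 28.0 to 33.1 in MA9, 3.49 to 3.61 in ME and 33756 to 43758 in WT, and Epb42 had no count in MA9 and ME, nor had Slc4a1 in ME. For 10 mature neutrophil markers the sums were 4385 to 4633 CPM in BN1, 533 to 574 in MA9, 278 to 326 in ME and 56574 to 59681 in WT, with every marker detected in every group. Sums of 10 B cell markers were 7.90 to 8.86 CPM in BN1, 20.4 to 21.3 in MA9, 2.85 to 3.31 in ME and 1245 to 1413 in WT, and Ms4a1 had no count in MA9 and ME, nor had Ebf1 in MA9 and Pax5 in ME. Sums of 10 T and NK cell markers were 141 to 147 CPM in BN1, 21.7 to 25.8 in MA9, 6.76 to 8.28 in ME and 262 to 273 in WT. Nkg7, a granule protein gene of cytotoxic cells, made up most of this sum in the leukemias and was higher in BN1 than in WT, at 144 CPM in BN1, 22.6 in MA9, 6.41 in ME and 39.98 in WT. Of the same list there was no count of Klrd1 in BN1, of Ncr1 in MA9 and of Cd3g and Cd8a in ME. Early myeloid markers, 5 genes, ran the other way, at 21286 to 21912 CPM in BN1, 10992 to 11520 in MA9, 16800 to 17584 in ME and 1516 to 1615 in WT. All 7 leukocyte markers were detected in every group, with sums of 5394 to 5561 CPM in BN1, 6500 to 6525 in MA9, 5957 to 6441 in ME and 9419 to 9632 in WT. The part of this difference in cell types in the ribosomal protein results was not tested, and in bulk RNA more cells of a type and more RNA per cell cannot be told apart.

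The core genes together took a larger share of the counts in every leukemia library than in any WT library. They held 6.18%, 6.35% and 6.54% of all counts in BN1, 7.57%, 7.24% and 7.63% in MA9, 7.55%, 7.38% and 7.46% in ME, and 3.72%, 4.07% and 3.98% in WT. The BN1 libraries formed a step of their own, above all WT libraries and below all MA9 and ME libraries, while MA9 and ME overlapped. The mean share was 6.36% ± 0.180 in BN1 (SD, n = 3), 7.48% ± 0.210 in MA9, 7.46% ± 0.0891 in ME and 3.92% ± 0.183 in WT, which is 1.62 times the WT share in BN1, 1.91 times in MA9 and 1.90 times in ME. Hemoglobin transcripts took 2.92% to 3.80% of the WT counts, and LOC101056014 with Lars2 took 1.80% of ME replicate 3. With all of these left out of the totals the mean share was 6.36% in BN1, 7.49% in MA9, 7.51% in ME and 4.07% in WT. Other transcripts abundant in WT stayed in these totals, such as the 10 mature neutrophil markers (56574 to 59681 CPM in WT).

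**Figure D1:**
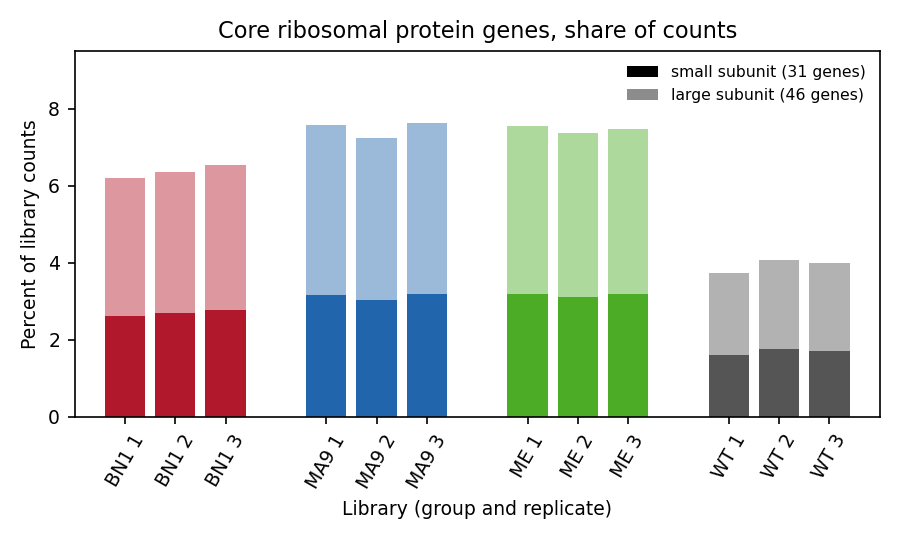
Share of each library's counts held by the 77 core ribosomal protein genes, in percent, for 3 libraries of each group; the dark part of a bar is the small subunit and the light part the large subunit. The BN1 bars (6.18% to 6.54%) lie between the MA9 and ME bars (7.24% to 7.63%) and the WT bars (3.72% to 4.07%).

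Both subunits had larger shares in the leukemias. The small subunit held 2.69% ± 0.0717 of counts in BN1, 3.12% ± 0.0850 in MA9, 3.15% ± 0.0464 in ME and 1.68% ± 0.0748 in WT (SD, n = 3 each). The large subunit held 3.67% ± 0.108 in BN1, 4.36% ± 0.125 in MA9, 4.31% ± 0.0508 in ME and 2.24% ± 0.109 in WT. The ratio of small to large subunit counts was lower in every leukemia library (0.712 to 0.739) than in every WT library (0.745 to 0.753), at 0.733 ± 0.00321 in BN1, 0.715 ± 0.00267 in MA9, 0.730 ± 0.00804 in ME and 0.749 ± 0.00397 in WT. Per kilobase of the longest principal GENCODE transcript, the median core gene stood at 838 CPM in BN1, 989 in MA9, 1043 in ME and 601 in WT.

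In BN1 against WT, 74 of the 77 core genes were higher and none was lower by edgeR's quasi-likelihood test at an adjusted p under 0.05. Of all 15334 genes tested, 38.4% were higher and 40.8% lower. The median log2 fold change of the core genes was 0.51, against -0.01 over all genes tested. No core gene was lower at an unadjusted p under 0.05 either, and DESeq2 and limma-voom called 0 lower and 73 higher each. The call was missed by Rpl37 (0.16 ± 0.09, adjusted p = 0.14), Rpl9 (0.08 ± 0.05, adjusted p = 0.18) and Rps27 (0.21 ± 0.15, adjusted p = 0.22), where ± is the standard error.

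The increase in BN1 was uneven. At least 2-fold higher were 5 of the 77 core genes, a smaller share than the 13.6% of all genes tested: Rps28, Rpl4, Rpl26, Rps6 and Rps19. Rps28, a small protein near the mRNA exit of the small subunit, stood at 567, 563 and 647 CPM in BN1, 403, 333 and 392 in MA9, 372, 362 and 379 in ME, and 189.6, 222 and 209.7 in WT. Every BN1 library lay above every other library, and the MA9 and ME libraries overlapped each other and lay above WT. Its log2 fold change in BN1 against WT was 1.52 ± 0.07 (adjusted p = 1.3e-13).

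Rpl4, a large subunit protein with a long loop into the exit tunnel, had 2829, 2982 and 3105 CPM in BN1, 2328, 2216 and 2407 in MA9, 2118, 2139 and 2144 in ME, and 1165, 1307 and 1277 in WT. The groups fell in the order BN1, MA9, ME, WT with no overlap. The log2 fold change of Rpl4 in BN1 against WT was 1.25 ± 0.05 (adjusted p = 1.1e-19). Rpl26, a large subunit protein that also binds the p53 mRNA in human cells, had 842, 888 and 916 CPM in BN1, 702, 661 and 678 in MA9, 684, 659.6 and 699.7 in ME, and 385, 439.7 and 415 in WT. Again BN1 was highest and WT lowest with no overlap, and MA9 and ME overlapped. Its log2 fold change in BN1 against WT was 1.09 ± 0.05 (adjusted p = 1.1e-17).

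Rps6, the small subunit protein phosphorylated by S6 kinases, had 1785, 1798 and 1728 CPM in BN1, 1563, 1604 and 1532 in MA9, 1575, 1562 and 1682 in ME, and 832, 845 and 839 in WT (BN1 against WT 1.08 ± 0.04 on the log2 scale, adjusted p = 2.2e-19). BN1 was again above every other library. Rps19, the gene most often mutated in Diamond-Blackfan anemia, had 959, 1000.2 and 1135 CPM in BN1, 932, 801 and 971 in MA9, 1059, 1010.3 and 994 in ME, and 449, 532 and 511 in WT. Every leukemia library stood above WT, the BN1 libraries overlapped both MA9 and ME, and MA9 lay below ME, with a log2 fold change of 1.05 ± 0.08 in BN1 against WT (adjusted p = 7.8e-10).

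The promoters of 4 of these 5 genes held a sequence that the symbol rule did not use. The 10-base palindrome TCTCGCGAGA, the same on both strands, was searched in the window of 250 bases before to 50 after the start of each gene in RefSeq's GRCm38.p6 annotation. It was picked as the palindrome of that length in the most core windows, with the next one in 2 genes. That choice favors a higher share in core windows than in all genes. The palindrome was found in 6 of the 57 core genes with a promoter in that table (10.5%) and in 142 of 27025 genes (0.525%). The 6 genes were Rps28, Rpl26, Rps6, Rps19, Rpl10a and Rpl12, which include 4 of the 5 genes that were at least 2-fold higher in BN1. The palindrome was noticed after the values were seen, so the match is a description and no test was made. The windows below show 80 bases before and 20 after the start, 5′ to 3′ on the gene's strand, for those 6 genes and for Rpl4, which has no palindrome. Capitals mark the palindrome, the ETS-type motif CCGGAAG (Rpl26) and runs of at least 8 C or T within 20 bases of the start (Rps6 and Rpl4).
Rps28, chr17:33824543-33824642, minus strand: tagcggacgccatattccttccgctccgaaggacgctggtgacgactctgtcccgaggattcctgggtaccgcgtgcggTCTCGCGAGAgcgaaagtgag
Rpl26, chr11:68901486-68901585, plus strand: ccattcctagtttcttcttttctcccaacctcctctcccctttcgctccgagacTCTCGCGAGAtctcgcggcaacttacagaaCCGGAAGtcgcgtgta
Rps6, chr4:86857348-86857447, minus strand: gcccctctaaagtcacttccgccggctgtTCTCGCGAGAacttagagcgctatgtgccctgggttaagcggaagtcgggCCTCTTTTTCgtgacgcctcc
Rps19, chr7:24884512-24884611, plus strand: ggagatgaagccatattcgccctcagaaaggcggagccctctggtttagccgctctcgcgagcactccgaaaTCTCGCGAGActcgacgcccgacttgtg
Rpl10a, chr17:28328485-28328584, plus strand: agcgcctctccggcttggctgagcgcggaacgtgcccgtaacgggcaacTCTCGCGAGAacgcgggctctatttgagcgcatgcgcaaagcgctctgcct
Rpl12, chr2:32961632-32961731, plus strand: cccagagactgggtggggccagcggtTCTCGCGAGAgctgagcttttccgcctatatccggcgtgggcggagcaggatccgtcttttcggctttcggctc
Rpl4, chr9:64173307-64173406, plus strand: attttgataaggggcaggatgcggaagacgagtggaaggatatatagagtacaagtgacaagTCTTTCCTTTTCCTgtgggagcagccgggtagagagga

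The first base of the palindrome lay at -1 from the start in Rps28, -26 in Rpl26, -31 in Rpl10a, -51 in Rps6, -54 in Rpl12, and -8 with a second copy at -92 in Rps19, where -1 is the base just before the start. The copies in Rps28 and at -8 in Rps19 thus run across the annotated start, and the other copies lie before it. The median log2 fold change of the 6 genes was 1.06 in BN1 against WT, beside 0.50 for the 51 core genes whose window lacked it. In MA9 against WT the medians were 0.88 with the palindrome and 0.73 without it, and in ME against WT 0.96 and 0.81. Of the 6, Rpl12 and Rpl10a were lower in BN1 than in MA9 and ME. Rpl12, a protein at the base of the large subunit's stalk, had 683, 707 and 763 CPM in BN1, 939.9, 889 and 954 in MA9, 1008, 983 and 956 in ME, and 450.3, 518 and 522 in WT, so that BN1 lay between WT and the MLL leukemias without overlap. Rpl10a took the same place, with 765, 798 and 829 CPM in BN1, 931, 879 and 945 in MA9, 939, 925 and 895 in ME, and 403, 458 and 454 in WT.

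**Figure D2:**
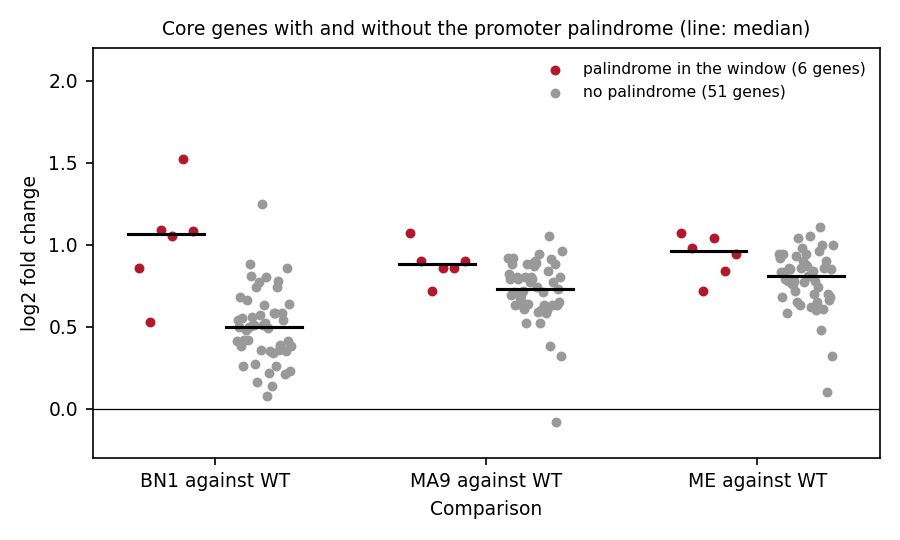
Log2 fold change of the 57 core genes with a promoter window, split by whether the window holds the palindrome (red, 6 genes) or not (gray, 51 genes), for the 3 leukemias against WT; each point is a gene and the black line the median. The medians are 1.06 and 0.50 in BN1, 0.88 and 0.73 in MA9, and 0.96 and 0.81 in ME.

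Medians with and without CCGGAAG, or with and without a C or T run, lay closer together in BN1 against WT. These features were not picked from the core windows as the palindrome was, so the contrast is a description only. CCGGAAG, on either strand, was in 24 of 57 core windows (42.1%, against 9.93% of all genes), and the median log2 fold change in BN1 against WT was 0.54 with it and 0.49 without it. A run of at least 8 C or T within 20 bases of the start was in 28 of 57 (49.1%, against 18.4% of all genes), with medians of 0.52 with it and 0.51 without it. TATAAA, read on the transcribed strand between 40 and 20 bases before the start, was in 0 of 57, against 2.25% of all genes.

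In MA9 against WT, 76 of 77 core genes were higher and none lower by the same test, beside 39.3% of all genes higher and 40.8% lower. Their median log2 fold change was 0.74, against -0.01 over all genes tested. The count lower at an unadjusted p under 0.05 was 0, and DESeq2 and limma-voom each called 0 lower. Rps27 alone missed the call (-0.08 ± 0.15, adjusted p = 0.63). The genes at least 2-fold higher numbered 4 of 77, a smaller share than the 14.9% of all genes tested. Among the largest fold changes were Rpl10a (1.07 ± 0.05), Rps2 (1.05 ± 0.06), Rpl3 (1.01 ± 0.04) and Rpl32 (1.0 ± 0.04).

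Rps2, at the mRNA entry of the small subunit, had 2049, 1862 and 2097 CPM in MA9, 2156, 2098 and 2024 in ME, 1598, 1605 and 1785 in BN1, and 883, 1023 and 999.6 in WT. Rpl3, a core protein near the peptidyl transferase center, had 1542, 1527 and 1590.2 CPM in MA9, 1474, 1476 and 1515 in ME, 1103, 1109 and 1103 in BN1, and 735, 796 and 779 in WT. In both genes MA9 and ME lay above BN1, and BN1 above WT, without overlap. MA9 and ME overlapped in Rps2, while in Rpl3 every MA9 library was above every ME library.

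In ME against WT, 76 of 77 core genes were higher and none lower, beside 39.0% of all genes higher and 40.2% lower, and Rps27 (0.10 ± 0.15, adjusted p = 0.58) was again the exception. No core gene was lower at an unadjusted p under 0.05, and DESeq2 and limma-voom each called 0 lower. The core median was 0.79, against -0.01 over all genes tested. At least 2-fold higher were 10 of the 77, a share near the 13.9% of all genes tested. Rpl32, a large subunit protein, led with 1136, 1103 and 1179.8 CPM in ME and 465, 506 and 499 in WT (1.22 ± 0.05, adjusted p = 1.4e-19). MA9 (1007, 965 and 978) and BN1 (719.7, 725 and 763) stood between them, each apart from its neighbors. Others with large fold changes were Rps2 (1.11 ± 0.06), Rpl36 (1.10 ± 0.05) and Rpl10a (1.07 ± 0.05). Rpl36, a large subunit protein, had 551, 529 and 582 CPM in ME and 241, 274 and 259 in WT.

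Across the libraries, every leukemia library lay above every WT library for 73 of the 77 core genes, which held for 25.3% of all genes tested. Rps27, encoding a zinc finger protein of the small subunit, was one of the exceptions. It had 392, 417 and 362 CPM in BN1, 303, 362 and 289.8 in MA9, 329.7, 307 and 443 in ME, and 371, 324 and 314 in WT, and all 4 groups overlapped. Its coefficient of variation in ME, 20.3%, was the highest of any core gene in any group, whereas the median over the core genes was 3.38% to 5.97% by group.

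**Figure D3:**
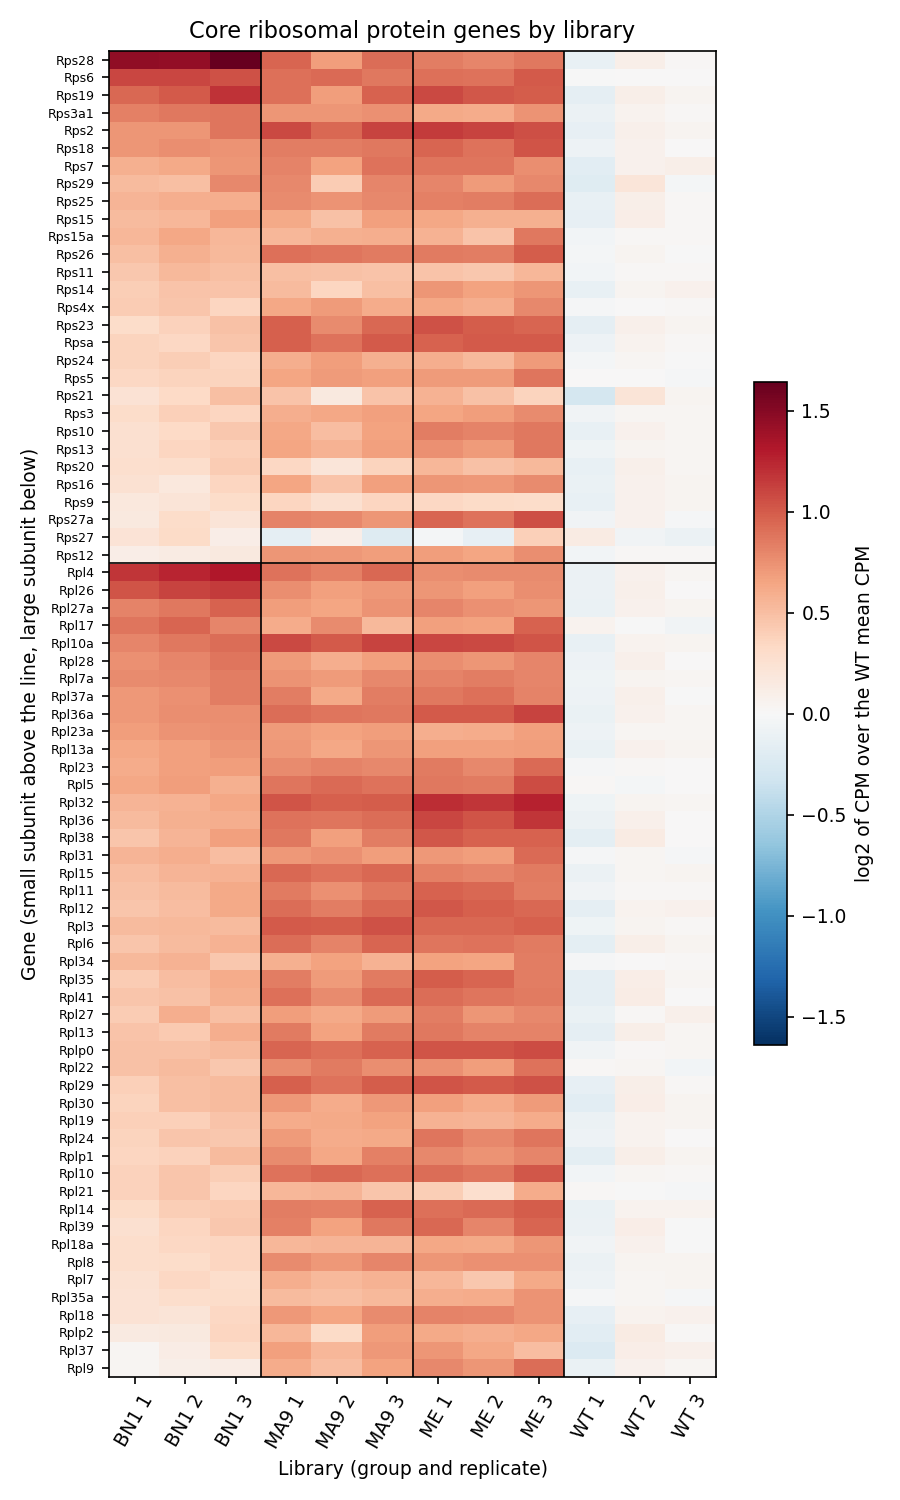
Core genes (75 of the 77, down the page, small subunit above the line and large subunit below, ordered by the BN1 mean within each subunit) in each of the 12 libraries (across), as log2 of its CPM over the WT mean CPM. Nearly all fields of the leukemia libraries are red, BN1 is paler than MA9 and ME for most genes, and Rps28 and Rpl4 are darkest in BN1, while Rps27 shows no group pattern.

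BN1 against the MLL leukemias separated the core genes further. In BN1 against MA9, 9 were higher, 53 lower and 15 not called, beside 32.8% of all genes higher and 34.9% lower, with a core median of -0.24. In BN1 against ME, 6 were higher, 56 lower and 15 not called, beside 31.8% of all genes higher and 33.0% lower, with a core median of -0.30. No core gene differed by at least 2-fold in BN1 against MA9 (23.8% of all genes tested did), in BN1 against ME (22.1%) or in MA9 against ME (12.4%). The comparisons share the BN1 libraries with each other and with the comparison to WT. By group means, BN1 lay above WT and below both MLL leukemias for 62 of 77 core genes, against 16.2% of all genes tested, and was the highest group for 12, against 24.7%.

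The genes higher in BN1 than in MA9 were Rps28 (0.66 ± 0.07, adjusted p = 7e-08), Rpl26 (0.38 ± 0.05), Rpl4 (0.36 ± 0.05), Rpl17 (0.24 ± 0.08), Rpl27a (0.20 ± 0.05), Rps6 (0.18 ± 0.04), Rps19 (0.19 ± 0.08), Rpl28 and Rps3a1. Those higher in BN1 than in ME were Rps28 (0.67 ± 0.07, adjusted p = 5.4e-08), Rpl4 (0.48 ± 0.05), Rpl26 (0.37 ± 0.05), Rps3a1 (0.20 ± 0.04), Rps6 (0.14 ± 0.04) and Rpl27a. Rps19 was 0.01 ± 0.08 in BN1 against ME (adjusted p = 0.89). Rps3a1, a small subunit protein, had 1573, 1619.7 and 1639 CPM in BN1, 1467, 1469.7 and 1499 in MA9, and 1367, 1355 and 1484 in ME. Its BN1 libraries lay above all MA9 and ME libraries by a small margin. Rpl17, a protein at the tunnel exit, had 861, 909 and 815 CPM in BN1, 715, 804 and 677 in MA9, and 747, 742 and 919 in ME, so that BN1 cleared MA9 and overlapped ME.

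At the other end stood Rpsa, Rps12, Rps27a, Rpl9, Rps23 and Rpl32. Rpsa, which is both a small subunit protein and the precursor of the laminin receptor, had 1633, 1600.3 and 1735 CPM in BN1, 2500.4, 2360.3 and 2545 in MA9, 2487, 2542 and 2559 in ME, and 1193, 1324 and 1289.6 in WT. BN1 lay between WT and the MLL leukemias with no overlap, and the log2 fold change was -0.58 ± 0.04 against MA9 (adjusted p = 4.2e-12) and -0.61 ± 0.04 against ME (adjusted p = 1.3e-12). Rps12, a small subunit protein, had 429, 437 and 444 CPM in BN1, 659, 653 and 639 in MA9, 639, 621 and 674 in ME, and 385, 404 and 404 in WT, and fell by 0.57 ± 0.04 on the log2 scale in BN1 against MA9. Its BN1 libraries lay much nearer to WT than to either MLL leukemia.

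Rps27a is made as a fusion with ubiquitin and is the source of part of the cell's ubiquitin. It had 567, 624 and 587 CPM in BN1, 889, 874 and 835 in MA9, 984, 942 and 1053 in ME, and 486, 532 and 499 in WT, with log2 fold changes of -0.55 ± 0.05 against MA9 and -0.74 ± 0.05 against ME. The 4 groups did not overlap. Rpl9, at the base of the stalk, had 465, 487 and 495 CPM in BN1, 696, 648 and 724 in MA9, 786, 757 and 865 in ME, and 423, 479 and 468 in WT. BN1 overlapped WT, and both were below every MLL leukemia library (BN1 -0.51 ± 0.05 against MA9 and -0.73 ± 0.05 against ME). Rps23, the small subunit protein of the decoding center, had 740.1, 777 and 838 CPM in BN1, 1181, 1027 and 1154 in MA9, 1229, 1193 and 1163 in ME, and 540.5, 635 and 619.6 in WT. BN1 again took its own step, with -0.51 ± 0.06 against MA9 and -0.61 ± 0.06 against ME. The promoters of Rpsa, Rps12 and Rpl9 are shown for comparison with those above, in the same build, window and strand.
Rpsa, chr9:120127686-120127785, plus strand: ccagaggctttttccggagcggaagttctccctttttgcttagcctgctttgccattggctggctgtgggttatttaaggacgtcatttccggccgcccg
Rps12, chr10:23787190-23787289, minus strand: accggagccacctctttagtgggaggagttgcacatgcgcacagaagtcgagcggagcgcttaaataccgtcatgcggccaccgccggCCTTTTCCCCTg
Rpl9, chr5:65391412-65391511, minus strand: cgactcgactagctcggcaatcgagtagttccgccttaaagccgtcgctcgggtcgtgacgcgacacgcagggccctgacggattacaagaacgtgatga
None of the 3 holds the palindrome, and the capitals in Rps12 mark a C or T run within the 20 bases after the annotated start.

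**Figure D4:**
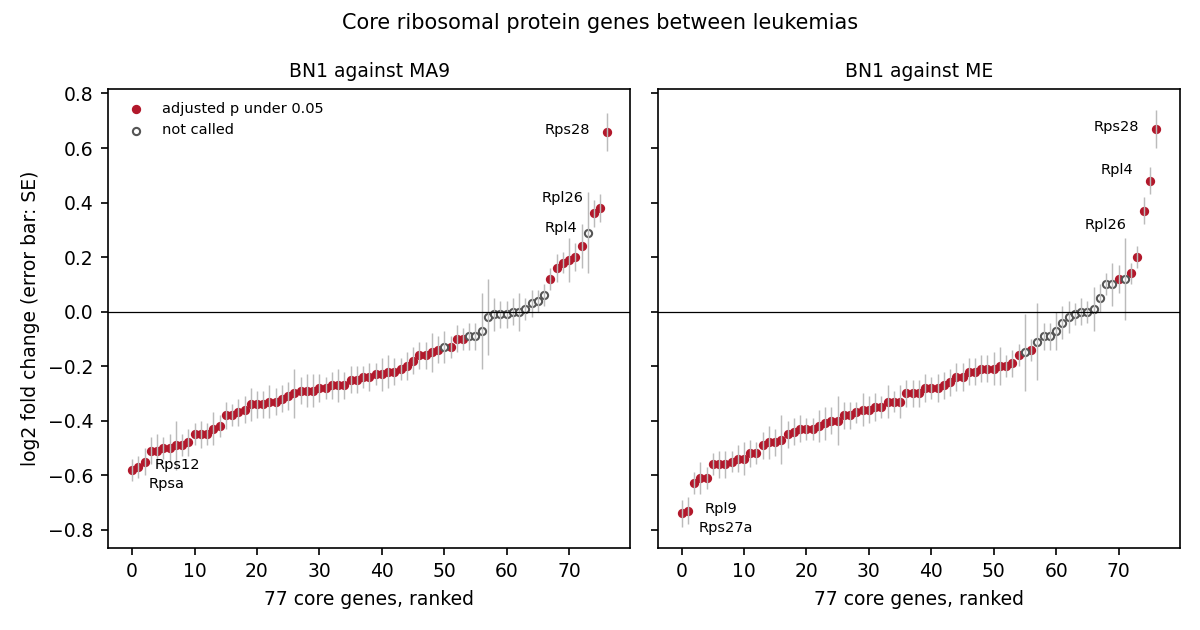
Log2 fold change of the 77 core genes, ranked, in BN1 against MA9 (left) and BN1 against ME (right); error bars are standard errors and filled points have an adjusted p under 0.05. Most genes lie below 0, with medians of -0.24 and -0.30, and Rps28, Rpl4 and Rpl26 are the 3 highest called genes in both panels.

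MA9 and ME had the fewest core genes called between them. In MA9 against ME, 1 core gene was higher, 16 were lower and 60 were not called, beside 20.2% of all genes higher and 20.4% lower, with a core median of -0.07. With library totals alone as the scale the split was 7 higher and 8 lower, and without ME replicate 3 it was 3 higher and 12 lower. The higher gene was Rpl4 (0.12 ± 0.05, adjusted p = 0.037), and no core gene was higher in the fits without BN1 replicate 2, without MA9 replicate 1 or 3, or without ME replicate 1 or 2. The lower ones were led by Rps14 (-0.25 ± 0.05), Rps10 (-0.24 ± 0.05), Rpl9 (-0.22 ± 0.05), Rps20 (-0.22 ± 0.05) and Rpl32 (-0.21 ± 0.04). Rps14, a small subunit protein whose human gene lies in the region lost in the 5q- syndrome, had 903, 804 and 889 CPM in MA9 and 1043, 1002 and 1045 in ME. Rps10, near the small subunit's beak, had 597, 546 and 609 CPM in MA9 and 691, 675 and 703 in ME. The 2 groups did not overlap in either gene.

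To describe the makeup of the ribosomal protein transcripts apart from their total, the core counts themselves were used as each library's size. On that scale a core gene is higher when its share of core counts is higher. These shares have a fixed sum, so a larger share of some core genes forces a smaller share of others. The scale also holds the core near 0 and shifts all other genes alike. For BN1 against WT the median log2 fold change was -0.06 over the core genes and -0.59 over all genes tested. The percentages of all genes changed given below include this shift, so they are no background for the core genes. In BN1 against WT, 50 core genes then changed, 18 of them higher and 32 lower, beside 80.6% of all genes changed in either direction. Rps28 was the highest at 0.94 ± 0.06 (adjusted p = 3.3e-13), followed by Rpl4 (0.68 ± 0.04), Rpl26 (0.52 ± 0.05), Rps6 (0.51 ± 0.05) and Rps19 (0.48 ± 0.06), whereas Rpl9 (-0.49 ± 0.05), Rps12 (-0.44 ± 0.05), Rps9 (-0.34 ± 0.04) and Rps27a (-0.34 ± 0.05) had a smaller share than in WT. In MA9 against WT, 22 core genes were higher and 23 lower, 45 in all, beside 83.2% of all genes changed. In ME against WT, 20 were higher and 23 lower, 43 in all, beside 84.0% of all genes changed. Rps28 was 0.10 ± 0.06 in MA9 against WT (adjusted p = 0.11) and 0.03 ± 0.06 in ME against WT (adjusted p = 0.65) on this scale. In these 2 comparisons Rps27 was lower, at -0.84 ± 0.15 in MA9 and -0.73 ± 0.15 in ME. Directly between leukemias, Rps28 was 0.84 ± 0.06 in BN1 against MA9 and 0.92 ± 0.06 in BN1 against ME. There 19 core genes were higher and 25 lower in BN1 against MA9, beside 66.5% of all genes changed, and 19 were higher and 33 lower in BN1 against ME, beside 65.5%. MA9 against ME gave 4 higher and 8 lower, beside 37.6%.

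The paralogs differed from their core partners in several cases. Rps4l, annotated as a transcribed processed pseudogene of the X-linked Rps4x at chr6:148354656-148355596, inside the span of Tmtc1, had 0 counts in all 3 BN1 libraries and all 3 ME libraries. In MA9 it had 172, 237 and 220 counts, and in WT 132, 115 and 118. Set against a floor of 3 counts over the group, Rps4l was at least 158-fold lower in BN1 than in WT, at least 132-fold lower in ME than in WT and at least 239-fold lower in BN1 than in MA9. MA9 was above WT by 0.60 ± 0.15 on the log2 scale (adjusted p = 0.00095, with no overlap), a difference that turns to -0.16 with core counts as library size. Its partner Rps4x was at 1120.3, 1155 and 1075 CPM in BN1, 1307, 1367 and 1282 in MA9, 1308, 1276 and 1452 in ME, and 826, 842 and 855 in WT. The Rps4l and Rps4x transcripts are 79.7% identical over 814 aligned bases and share no run longer than 38 bases. Tmtc1 itself had 0 to 17 counts a library.

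Rps27l, a paralog of Rps27 that is a p53 target in human cells, did not follow its partner. It had 84.7, 91.0 and 88.5 CPM in BN1, 97.9, 92.6 and 89.3 in MA9, 97.1, 99.6 and 103 in ME, and 43.9, 51.5 and 48.7 in WT, so that every leukemia library was above WT. The log2 fold changes were 0.88 ± 0.06 in BN1 (adjusted p = 1.2e-13), 0.96 ± 0.06 in MA9 (adjusted p = 1.7e-14) and 1.06 ± 0.06 in ME (adjusted p = 1.8e-15). Per length of the longest principal transcript, which sets the size of these shares, Rps27l made up 13.5% ± 0.811 of the pair in BN1, 16.9% ± 1.71 in MA9, 16.4% ± 2.29 in ME and 9.04% ± 1.29 in WT (SD, n = 3 each).

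Rpl22l1, whose partner Rpl22 represses it in mouse cells, had 47.7, 52.0 and 50.6 CPM in BN1, 77.4, 70.5 and 76.7 in MA9, 71.1, 63.5 and 89.6 in ME, and 38.9, 43.2 and 42.8 in WT. BN1 lay just above WT (0.27 ± 0.09, adjusted p = 0.014) and well below MA9 (-0.58 ± 0.09) and ME (-0.57 ± 0.09). Rpl22 itself had 318, 328 and 311 CPM in BN1, 391, 412 and 389 in MA9, 384, 367 and 423 in ME, and 232, 233 and 221 in WT, so both genes had the same order of groups. The Rpl22l1 share of the pair per length was 36.8% ± 0.979 in BN1, 41.2% ± 2.01 in MA9, 41.3% ± 2.53 in ME and 40.3% ± 1.76 in WT.

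Rpl36al, a paralog that encodes nearly the same protein as Rpl36a, rose by 0.68 ± 0.05 in BN1, 1.10 ± 0.05 in MA9 and 1.11 ± 0.05 in ME against WT on the log2 scale. Its share of the pair was 19.9% ± 0.157 in BN1, 23.2% ± 0.453 in MA9, 21.3% ± 0.462 in ME and 20.6% ± 0.138 in WT. Rpl7l1, a relative of Rpl7, rose by 0.58 ± 0.05 in BN1, 1.03 ± 0.05 in MA9 and 0.91 ± 0.05 in ME. It had 106, 114 and 101 CPM in BN1, 146, 149.8 and 142 in MA9, 134, 130.0 and 139 in ME, and 66.8, 72.3 and 75.2 in WT, and the groups did not overlap.

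Rpl3l, the form of Rpl3 found in heart and skeletal muscle, was the paralog that fell in all 3 leukemias, at a low level. It had 21, 21 and 28 counts in BN1, 13, 9 and 15 in MA9, 29, 26 and 21 in ME, and 32, 50 and 37 in WT. The log2 fold changes against WT were -1.15 ± 0.29 in BN1 (adjusted p = 0.00081), -1.86 ± 0.32 in MA9 (adjusted p = 7.7e-06) and -0.77 ± 0.29 in ME (adjusted p = 0.017). Rpl32l, coding in RefSeq and a processed pseudogene in GENCODE, had between 2 and 22 counts a library and is 96.0% identical to Rpl32, with a shared run of 94 bases, so its counts are uncertain. The germ line paralog Rpl39l had 3 counts in all 12 libraries together and Rpl10l had none.

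**Figure D5:**
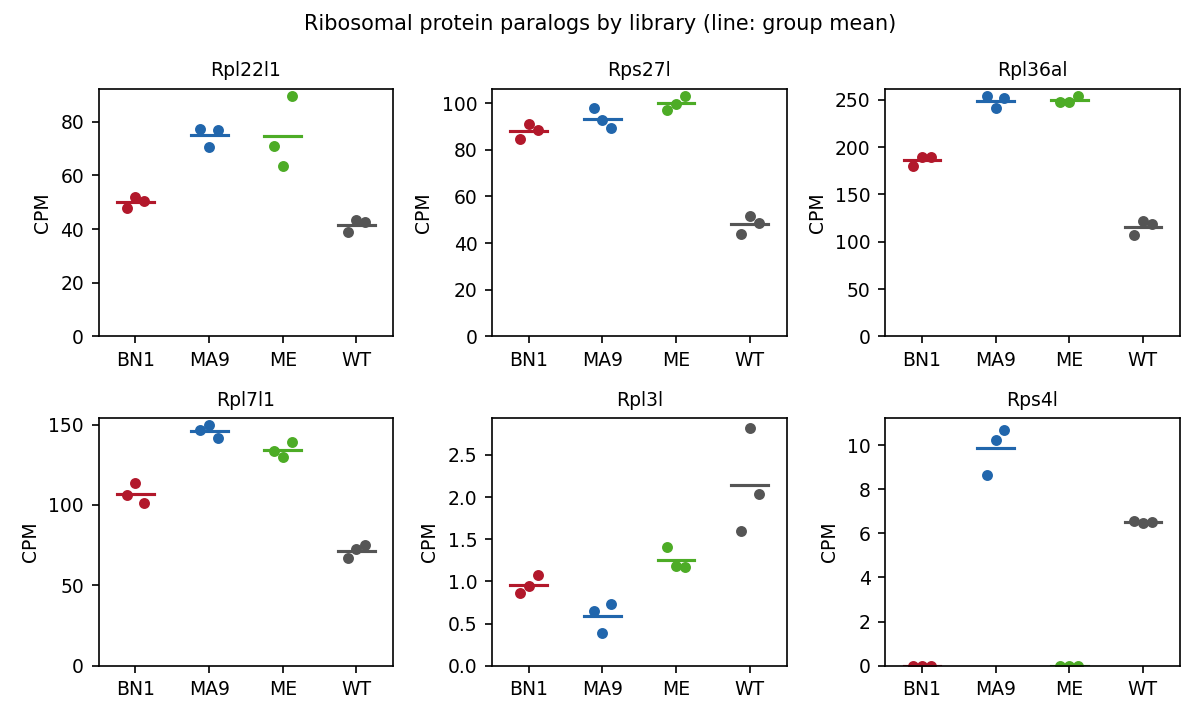
Level of 6 paralogs in CPM (linear axis from 0) in each library, with the group mean as a line. Rps4l is at 0 in BN1 and ME and between 6.47 and 10.7 CPM in MA9 and WT, Rpl3l is highest in WT, and the other 4 are lowest in WT.

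Related genes were described from lists by their counts and medians. Of the ribosomal proteins whose names fall outside the symbol rule, Rack1, a signaling scaffold on the small subunit, rose in BN1 (0.81 ± 0.04), MA9 (0.90 ± 0.04) and ME (1.01 ± 0.04) against WT. Fau, a ubiquitin-like fusion with a small subunit protein, rose in MA9 (0.24 ± 0.07) and ME (0.43 ± 0.07) and was 0.13 in BN1, where it was not called. Of 21 core genes mutated in human Diamond-Blackfan anemia, 20 were higher in each leukemia than in WT, with medians of 0.54 in BN1, 0.72 in MA9 and 0.79 in ME. Rps27 was the one not called in each leukemia. Beside these stand 38.4% of all genes higher in BN1, 39.3% in MA9 and 39.0% in ME. Of all 77 core genes, 74 were higher in BN1 (median 0.51), 76 in MA9 (0.74) and 76 in ME (0.79). The list thus repeats the core result.

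Other mRNAs with a pyrimidine-rich start and translation factors, 25 genes, had 18 higher and 5 lower in BN1 (median 0.35), all 25 higher in MA9 (0.67) and all 25 higher in ME (0.62), beside 38.4% of all genes higher and 40.8% lower in BN1, 39.3% and 40.8% in MA9, and 39.0% and 40.2% in ME. The lower genes in BN1 included the histone chaperone Nap1l1 (-0.43 ± 0.05) and the snoRNA host genes Snhg5 (-0.37 ± 0.08), Snhg1 (-0.35 ± 0.07) and Gas5 (-0.31 ± 0.05), while the initiation factor subunit Eif3k (0.94 ± 0.05), the snoRNA host Snhg6 (0.92 ± 0.10) and the nucleolar protein Npm1 (0.90 ± 0.06) were higher. In MA9 the initiation factor subunit Eif3f led the list (1.44 ± 0.04), with 808, 798 and 820.2 CPM in MA9 against 287, 303 and 305 in WT.

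Regulators of these mRNAs were mixed, with 7 of 19 higher and 9 lower in BN1 against WT, 7 and 10 in MA9, and 10 and 6 in ME. In BN1 these are 36.8% higher and 47.4% lower, near the 38.4% and 40.8% of all genes, and the shares of all genes were 39.3% and 40.8% in MA9 and 39.0% and 40.2% in ME. Larp1, which binds the start of ribosomal protein mRNAs, was higher in BN1 (0.89 ± 0.04), MA9 (0.78 ± 0.04) and ME (0.92 ± 0.04), and the mTOR complex subunit Mlst8 was lower in BN1 (-0.90 ± 0.08), MA9 (-0.90 ± 0.08) and ME (-1.12 ± 0.08). Rictor, a subunit of mTOR complex 2, was lower in MA9 (-1.13 ± 0.06) and ME (-1.12 ± 0.06).

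A list of ribosomal protein chaperones and importers, which also held ribosome assembly factors such as Bop1, Ltv1 and Nob1, was mostly higher. Of its 17 genes, 14 were higher and 1 lower in BN1 (median 0.46), 16 and 0 in MA9 (0.87), and 16 and 0 in ME (0.62). Beside these stand 38.4% of all genes higher and 40.8% lower in BN1, 39.3% and 40.8% in MA9, and 39.0% and 40.2% in ME. Rrs1, which in yeast helps load Rpl5 and Rpl11, rose by 1.32 ± 0.06 in BN1, by 1.68 ± 0.06 in MA9 and by 1.67 ± 0.06 in ME. Heatr3, which carries Rpl5 in human cells, rose by 1.20 ± 0.07 in BN1, by 1.68 ± 0.06 in MA9 and by 1.56 ± 0.06 in ME. The checkpoint in which free Rpl5 and Rpl11 bind Mdm2 was covered by 5 genes. Of these, 2 were higher and 3 lower in BN1, 2 and 2 in MA9, and 2 and 3 in ME. These counts stand beside 38.4% of all genes higher and 40.8% lower in BN1, 39.3% and 40.8% in MA9, and 39.0% and 40.2% in ME. Mdm2 was lower in BN1 (-0.47 ± 0.05), MA9 (-0.71 ± 0.05) and ME (-0.65 ± 0.05). Trp53 was higher by 0.10 ± 0.05 in BN1 (adjusted p = 0.046 by edgeR's quasi-likelihood test), by 0.50 ± 0.05 in MA9 and by 0.30 ± 0.05 in ME. The mitochondrial ribosomal proteins, which serve a separate ribosome, were higher for 52 of 77 genes and lower for 6 in BN1 (median 0.35), 72 and 0 in MA9 (0.71), and 68 and 1 in ME (0.58), beside 38.4% of all genes higher and 40.8% lower in BN1, 39.3% and 40.8% in MA9, and 39.0% and 40.2% in ME. They took 0.253% ± 0.00278 of counts in BN1, 0.328% ± 0.00361 in MA9, 0.298% ± 0.00406 in ME and 0.183% ± 0.00387 in WT. Every BN1 library lay above WT and below both MLL leukemias, and every MA9 library lay above every ME library.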

How the data were processed

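The 12 libraries were made with a stranded poly(A) kit, per the labels' protocols. The authors deposited whole-number counts per gene, made with HISAT2 and featureCounts on mm10, with DESeq2 also named, per the submitters' processing notes. Versions, the annotation release, the strand setting and the treatment of reads that map to several places are not stated in the labels or notes used here, so counts of genes with close copies or overlapping genes are uncertain. From these counts, edgeR 4.0.16 (R 4.3.3) filtered genes with filterByExpr (15334 of 35976 kept), scaled libraries by TMM and tested group means over all 12 libraries with the quasi-likelihood test and Benjamini-Hochberg adjustment over all genes tested, at 0.05. The scripts were tested on simulated data. CPM use TMM-scaled library totals, and fold changes are log2 ± standard error. Named core genes were the 5 called with the largest change per direction and comparison at 5 CPM or more, all paralogs, and up to 4 called genes per direction of each list. The members and lists were chosen with earlier results of these data known; the palindrome, Nkg7, the core genes missing a call and those with the extreme values were chosen after values were seen. Transcript lengths and identities come from GENCODE M21 (GRCm38) and promoters from RefSeq (GRCm38.p6). Alternatives were DESeq2 1.42.0, limma-voom (limma 3.58.1), other scalings and filters, a replicate block, a 2-fold minimum and leaving out each library. Same-numbered libraries did not deviate together, so the numbers were not used as pairs. A few genes that these rules name are not reported here.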

Additional observations from a re-analysis of the deposited data

How the results depend on the processing

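The counts of core genes called kept within 1.5 times the values above under DESeq2, limma-voom, the other filters and the other scalings, apart from those given here. With core counts as library size, by construction a test of shares among core genes, the higher and lower counts were 18 and 32 in BN1 against WT, 22 and 23 in MA9 against WT, 20 and 23 in ME against WT, 19 and 25 in BN1 against MA9, 19 and 33 in BN1 against ME, and 4 and 8 in MA9 against ME. With a 2-fold minimum 5, 4 and 10 core genes stayed higher in BN1, MA9 and ME against WT, and 0 in either direction between leukemias. In MA9 against ME the count higher was 2 with DESeq2, limma-voom and upper-quartile scaling, and 7 higher and 8 lower with library totals alone; the cause was not tested. Leaving out each library in turn gave 72 to 75 higher and 0 lower in BN1 against WT, 75 to 76 and 0 in MA9 against WT, 76 and 0 in ME against WT, 8 to 9 higher and 47 to 53 lower in BN1 against MA9, 5 to 8 and 55 to 57 in BN1 against ME, and 0 to 3 and 12 to 22 in MA9 against ME.

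With the replicate number as a block, the higher and lower counts were 73 and 0, 75 and 0, and 76 and 0 in BN1, MA9 and ME against WT, 9 and 51 in BN1 against MA9, 6 and 56 in BN1 against ME, and 1 and 16 in MA9 against ME. The correlation of deviations over 18 same-numbered pairs ran from -0.0806 to 0.0625, so no shared deviation by number was visible. This check cannot show whether same-numbered libraries were handled together.

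Core counts as library size, a scaling that moves all genes of a comparison alike, left 27 of the 77 core genes above 0 in BN1 against WT, 37 in MA9 and 37 in ME. Among the log2 fold changes of single genes chosen by the naming rules, it turned the direction of 32. It puts the median of all genes at -0.59 in BN1, -0.77 in MA9 and -0.82 in ME against WT. Library totals alone put it at 0.11 in BN1 and 0.16 in MA9 against WT, and DESeq2 at -0.18 in BN1, -0.19 in MA9 and -0.17 in ME against WT. In BN1 against WT the turned values became -0.45 for Fau, -0.14 for Rps6kb1, -0.17 for Larp4, -0.47 for Trp53, -0.30 for Rpl22l1, -0.16 for Rpl10 and Rps4x, -0.09 for Rpl22, -0.22 for Rpl39, -0.05 for Rpl3, -0.28 for Rpl7 and -0.36 for Rps27. In MA9 against WT they became -0.52 for Fau, -0.07 for Eif4e, -0.34 for Rptor, -0.26 for Trp53, -0.16 for Rps4l, -0.19 for Rpl7 and -0.11 for Rps4x. In ME against WT they became -0.38 for Fau, -0.00 for Naca, -0.02 for Eif3l, -0.09 for Eif4g1, -0.22 for Eif4e, -0.30 for Rheb, -0.52 for Trp53, -0.04 for Rpl22, -0.28 for Rpl7, -0.73 for Rps27 and -0.14 for Rps4x. Between leukemias, Rps27l became 0.06 in BN1 against ME and Rpl36a 0.05 in BN1 against MA9.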

Other observations

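The palindrome TCTCGCGAGA was also read across the genes that are not ribosomal protein genes, as a description made after the values of the core genes were seen. Of 109 such genes with it in their window and enough counts, 95 were higher and 6 lower in BN1 against WT by edgeR's quasi-likelihood test, with a median log2 fold change of 0.91 and quartiles of 0.45 and 1.48. Of the 11066 genes with a window that lacked it, 38.5% were higher and 41.4% lower, with a median of -0.01. In MA9 against WT, 46 of the 109 were higher and 41 lower, with a median of 0.01, and in ME against WT 45 were higher and 38 lower, with a median of 0.05. Directly between leukemias, 99 of the 109 were higher and 4 lower in BN1 against MA9 (median 0.80), 98 and 3 in BN1 against ME (median 0.84), and 20 and 13 in MA9 against ME (median 0.00). The comparisons with BN1 share its 3 libraries.

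Genes with other features in their windows had medians nearer 0 in the comparisons with BN1. Genes with CCGGAAG and no palindrome numbered 2026. In BN1 against WT 49.2% of them were higher and 28.1% lower, with a median of 0.16. This tilt toward higher stands beside 38.5% higher and 41.4% lower among all genes whose window lacked the palindrome. The CCGGAAG genes had medians of 0.14 in MA9 and 0.15 in ME against WT. In BN1 against MA9 35.4% of them were higher and 33.0% lower (median 0.01), and in BN1 against ME 34.2% and 31.7% (median 0.01). Genes with CGCG and no palindrome numbered 7462. Of these, 40.9% were higher and 39.3% lower in BN1 against WT, with a median of 0.03. The shares were 33.4% and 37.5% in BN1 against MA9 (median -0.03), and 31.6% and 36.1% in BN1 against ME (median -0.04). Among the core ribosomal protein genes with the palindrome, 4 of 6 were higher and 2 lower in BN1 against MA9, and 3 were higher and 2 lower in BN1 against ME.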
